A study of Saccharomyces cerevisiae with 66 samples.

Results

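The 38 genes described here act in sulfur uptake, sulfate assimilation and the synthesis of methionine, cysteine, glutathione and S-adenosylmethionine in budding yeast. Nucleosome-depleted regions (NDRs) near their start codons were followed. An NDR was taken when its start lay within 1 kb of the start codon of a listed gene, on either side, in the sacCer3 annotation. MUP1, STR3, MET6 and MET13, which belong to the same pathway, were left out by this rule. It found 44 NDRs near 34 of the 38 genes, among 4828 NDRs in all, and 10 genes had more than 1 NDR. JLP1, MET22, YCT1 and MET4 had no NDR within 1 kb of their start codons and are not described further. MHT1 and MMP1, which are divergent, shared 1 NDR. MET16, SAM4 and MET31 each had 1 NDR that started after the start codon, by 975, 981 and 713 bp, and so outside the promoter. For 28 of the 44 NDRs the nearest gene start was that of a listed gene, so the other NDRs could equally be read as those of a neighbour.

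The samples came from MTAC, in which the GpC methyltransferase M.CviPI is fused to LacI and recruited to a LacO array next to a chosen gene, the viewpoint (VP), so that DNA close to the VP in the nucleus is methylated and then recovered with an antibody against 5-methylcytosine (MeDIP-seq). Each comparison set 2 libraries of a strain with the array against 2 libraries of its control without it, and 21 comparisons from 58 of the 66 libraries were available. The remaining libraries were not analysed here. The values available were each comparison's base mean, the normalized read count averaged over its 4 libraries, and the log2 fold change of targeted over control with its standard error (SE).

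All strains were w303 derivatives with the alleles ade2-1, leu2-3 with leu2-112, can1-100, trp1-1, his3-11 with his3-15, and ura3-1. Every strain, controls included, carried the LacI-SV40NLS-M.CviPI fusion at ADH1 under 2xlexO and the GAL1 core promoter, driven by LexA-ERHBD-VP16AD. The fusion was induced with 2 nM β-estradiol for 2 h, or for 1 h where stated. These times are from the labels. For the mating-type switch the study's methods describe growth in raffinose and β-estradiol throughout the longer galactose and glucose steps. The targeted strains carried 256 LacO copies at CDC43, OLE1, PCL10, PUS2 or YBP2 on chromosome VII, LSM4, SHC1 or TRP2 on chromosome V, VHR1 on chromosome IX, or LHS1, MBR1 or MNR2 on chromosome XI. The YBP2 strains at 1 h carried 4, 8, 16 or 256 copies. In the MAT comparisons the array was at TAF2, in MATa or MAT-alpha cells. The cells received glucose (D) or galactose (G), which induces switching in part of the population. For the switching assay the study lists targeted and control strains that also held GAL10pr-HO, beside MAT strains without it. The labels do not say which of these the comparisons in glucose used. All other strains were MATa. TRP2 cells and their controls were grown with (+met) or without (-met) methionine. For the other VPs the labels do not give the methionine content of the medium, although the study's text places SHC1 in medium without it. The 11 VPs at 2 h other than TRP2 and MAT share 1 pair of control libraries by their labels, the 4 YBP2 comparisons at 1 h share another pair, and the TRP2 and MAT comparisons have controls of their own.

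Yeast cells import sulfate through permeases, reduce it to sulfide and join the sulfide to a carbon chain made from aspartate to give homocysteine, from which methionine, S-adenosylmethionine, cysteine and glutathione are derived. When methionine is scarce the activator Met4 is brought to the promoters of these genes by the DNA-binding proteins Cbf1 and Met31 or Met32, with Met28 as a cofactor, and when methionine is plentiful the F-box protein Met30 has Met4 ubiquitylated. Cbf1 is known to bind CACGTG, and Met31 and Met32 to bind CTGTGGC.

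Of the 11 NDRs that a comparison called, the sequences of 8 are given, 1 for each of the 8 genes with the largest ratio of fold change to SE, and those of HOM6, SAM4 and the farther NDR of MET30 are not printed. Each run is the 250 bases from the deposited start of the NDR, in sacCer3, written 5′ to 3′ on the strand of the listed gene, since the tables do not hold the ends of the NDRs. Capitals mark CACGTG and CTGTGGC, the latter also as its reverse complement GCCACAG, and sequences are from the RefSeq copy of the genome.
SUL2, chrXII:323164-323413, plus strand: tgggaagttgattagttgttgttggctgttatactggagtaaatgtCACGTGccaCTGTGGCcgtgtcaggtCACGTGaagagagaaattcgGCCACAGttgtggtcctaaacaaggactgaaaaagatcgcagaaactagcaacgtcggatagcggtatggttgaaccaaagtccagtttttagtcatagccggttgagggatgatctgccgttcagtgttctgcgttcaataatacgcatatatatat
MET14, chrXI:439533-439782, minus strand: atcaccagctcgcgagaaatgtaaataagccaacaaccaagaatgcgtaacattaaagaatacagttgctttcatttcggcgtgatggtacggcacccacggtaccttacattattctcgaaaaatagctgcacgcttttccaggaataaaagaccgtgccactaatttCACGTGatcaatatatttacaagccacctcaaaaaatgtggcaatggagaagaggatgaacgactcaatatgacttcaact
HOM3, chrV:258072-258321, minus strand: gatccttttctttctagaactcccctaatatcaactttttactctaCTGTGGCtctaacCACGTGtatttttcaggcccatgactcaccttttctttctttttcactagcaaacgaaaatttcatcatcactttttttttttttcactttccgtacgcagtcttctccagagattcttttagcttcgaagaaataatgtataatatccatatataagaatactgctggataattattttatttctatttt
GSH1, chrX:236567-236816, minus strand: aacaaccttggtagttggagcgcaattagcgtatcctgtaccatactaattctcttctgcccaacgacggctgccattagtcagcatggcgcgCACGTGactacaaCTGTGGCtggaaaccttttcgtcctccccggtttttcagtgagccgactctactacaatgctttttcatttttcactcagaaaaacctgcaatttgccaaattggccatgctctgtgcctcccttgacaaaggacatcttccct
SAM3, chrXVI:22542-22791, plus strand: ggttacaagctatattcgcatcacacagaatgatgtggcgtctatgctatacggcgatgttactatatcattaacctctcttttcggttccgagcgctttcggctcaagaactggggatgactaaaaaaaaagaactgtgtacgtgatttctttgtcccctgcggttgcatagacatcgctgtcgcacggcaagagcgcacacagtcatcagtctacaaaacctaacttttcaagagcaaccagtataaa
MUP3, chrVIII:25550-25799, plus strand: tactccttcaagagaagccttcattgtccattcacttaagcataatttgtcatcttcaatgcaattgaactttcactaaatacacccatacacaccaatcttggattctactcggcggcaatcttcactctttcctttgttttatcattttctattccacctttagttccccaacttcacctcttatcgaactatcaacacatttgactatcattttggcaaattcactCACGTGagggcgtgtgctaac
MET28, chrIX:384192-384441, minus strand: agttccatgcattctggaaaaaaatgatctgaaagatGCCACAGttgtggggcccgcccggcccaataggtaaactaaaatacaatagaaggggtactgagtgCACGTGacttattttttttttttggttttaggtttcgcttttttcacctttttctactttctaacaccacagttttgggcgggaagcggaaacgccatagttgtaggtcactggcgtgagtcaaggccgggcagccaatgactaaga
MET30, chrIX:268427-268676, plus strand: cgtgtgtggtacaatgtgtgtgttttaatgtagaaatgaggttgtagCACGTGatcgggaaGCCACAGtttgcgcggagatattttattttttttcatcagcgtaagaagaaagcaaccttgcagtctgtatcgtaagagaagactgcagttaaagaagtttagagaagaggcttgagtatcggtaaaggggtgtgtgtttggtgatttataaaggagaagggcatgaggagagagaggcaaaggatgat
The SUL2 window held CACGTG at 334 and 308 bases before the start codon, with CTGTGGC 325 bases and GCCACAG 288 bases before it. The SAM3 window held neither motif. Over all members, CACGTG was found in 20 of the 44 windows (45.5%), against 4.27% of the windows of all 4828 NDRs, and CTGTGGC, on either strand, in 11 (25%), against 1.51%. In the 250 bases before to 50 bases after the start codon, CACGTG was in 11 of the 38 genes (28.9%) and in 2.92% of 6001 genes, and CTGTGGC in 6 (15.8%) and in 1.92%. Both motifs were searched on both strands, CACGTG reads the same on either, and the motifs can share at most an end base. GC dinucleotides, the sites that M.CviPI methylates, had a median of 10 in the member windows and 9 in those of all NDRs.

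An NDR was called higher when its log2 fold change was above 0.7 and lower when it was below -0.7, in both cases with a Benjamini-Hochberg adjusted p under 0.05 in a two-sided Wald test over all NDRs of the comparison. Counts cover NDRs more than 30 kb from the VP, as far-cis (same chromosome) or trans. Over the 21 comparisons, members were called higher 8 times and lower 3 times among 922 values, which is 0.868% and 0.325%. All NDRs were called higher in 1224 and lower in 431 of 100828 values, which is 1.21% and 0.427%. No member was called in 17 of the 21 comparisons. The 18 other genes listed for the pathway, such as those of methionine salvage and glutathione breakdown, had 23 NDRs with 11 higher and 2 lower calls of 483 values (2.28% and 0.414%). These were OPT1, an oligopeptide and glutathione transporter, MDE1, a methionine salvage enzyme, MXR1, a methionine sulfoxide reductase, and ADO1, adenosine kinase, on the higher side, and DUG3 and UTR4 on the lower side, all named after their values were seen. The 5 NDRs of the 4 genes left out by the rule were called higher in 37 of 101 values (36.6%) and never lower. These genes were set apart with earlier results of these data known, so the shares are not a fair comparison. MUP1, STR3 and MET13 lie on chromosome VII, as do several VPs, while CYS4 alone of the members does. Some of these calls were far-cis from VPs on that chromosome, and others were in trans.

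Among the 11 VPs at 2 h, members were called higher at 3. VHR1 called 1 member where the share of all NDRs called higher was 1.17%, LSM4 called 1 where it was 4.16%, and LHS1 called 2 where it was 3.67%. The others called none, with shares over all NDRs of 2.42% for YBP2, 0.625% for PUS2, 0.188% for OLE1, 2.43% for CDC43, 0.499% for PCL10, 4.1% for SHC1, 0.604% for MBR1 and 0.146% for MNR2. In the MAT comparisons no member was called, with shares of 0.48% (MATa, D), 0% (MATalpha, D), 0.0417% (MATa, G) and 0.0834% (MATalpha, G) over all NDRs. TRP2 called no member with methionine (0.0208%) or without it (0.167%). YBP2 at 1 h called none with 4 copies (0.125%), 8 copies (0%) or 16 copies (0.0833%), and with 256 copies it called 4 higher (4.48%) and 3 lower (3.21%). In the other 20 comparisons no member was called lower, where 0.288% of the values of all NDRs were.

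**Figure D1:**
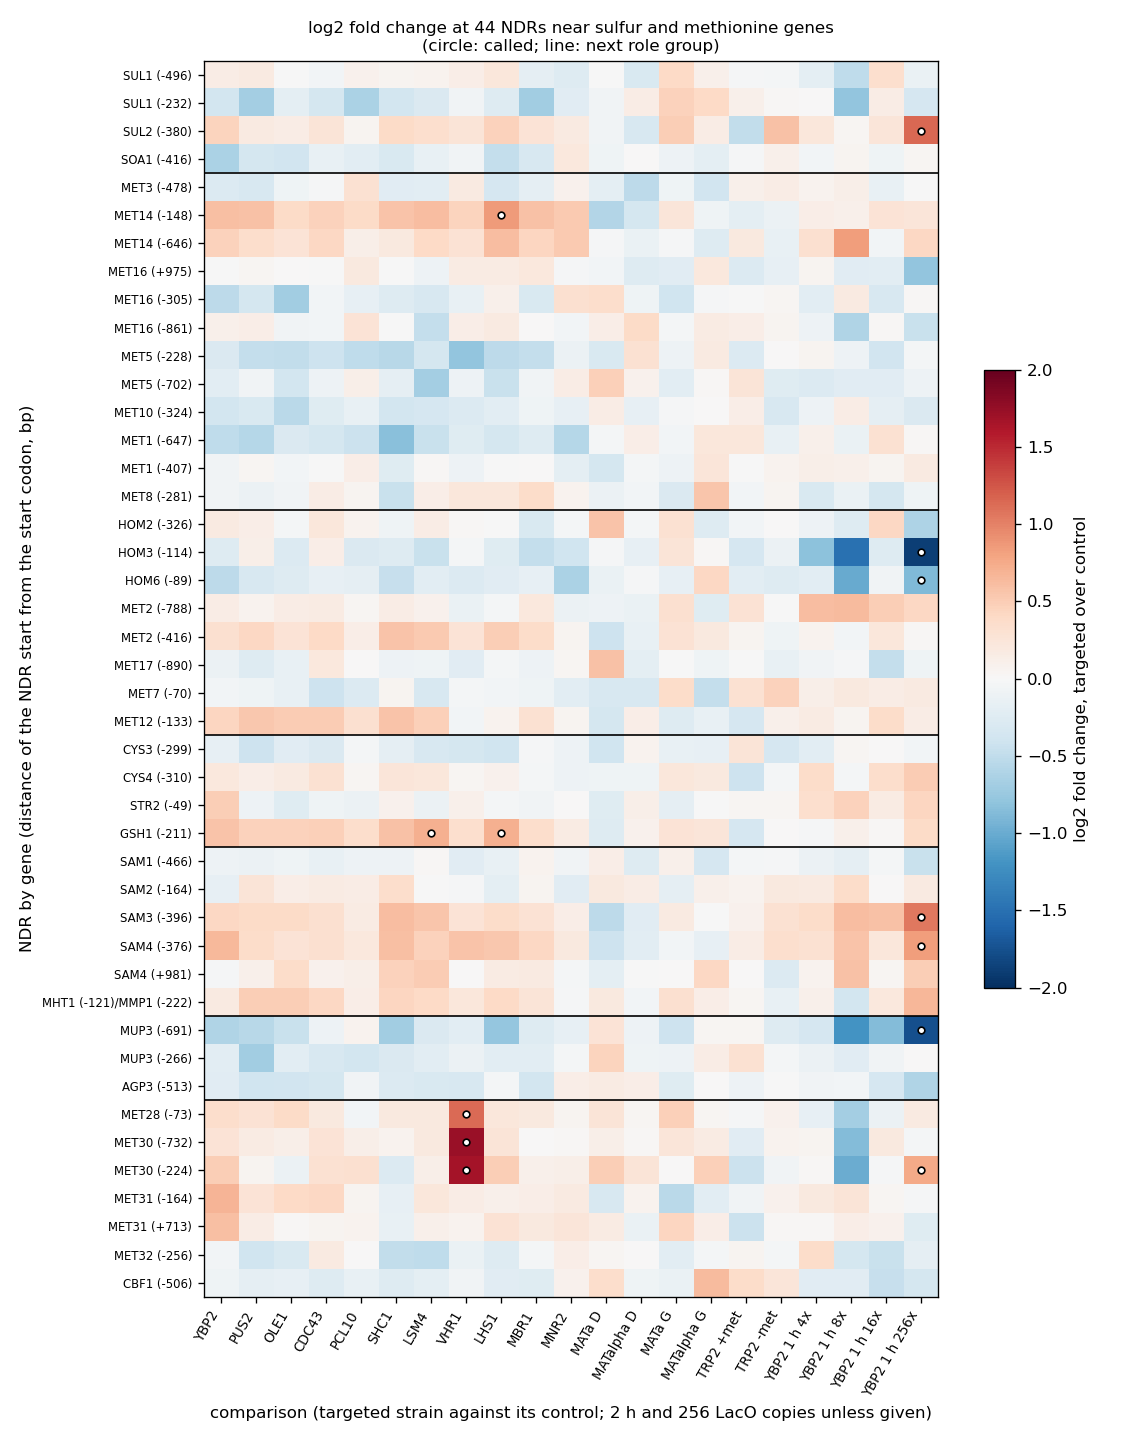
Log2 fold change of targeted over control at the 44 NDRs (rows, grouped by role, with the distance of the NDR start from the start codon in bp) in the 21 comparisons (columns); circles mark calls. Most cells are pale: calls sit at VHR1, LSM4, LHS1 and YBP2 with 256 copies at 1 h, and the circles for MET30 at VHR1 are within 30 kb of that VP.

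SUL2, encoding a high-affinity sulfate permease, had the largest base mean of the uptake genes, 48.8 to 364.9 with a median of 291.1. It was called higher with YBP2 at 1 h and 256 copies, with a log2 fold change of 1.15 (SE 0.234, adjusted p = 4.7e-05, base mean 238). With 4, 8 and 16 copies at 1 h it was 0.23, 0.04 and 0.25, and with 256 copies at 2 h it was 0.45. Over the 11 VPs at 2 h the log2 fold change of SUL2 ran from 0.06 to 0.46 with a median of 0.25, above 0 at all 11, which share their control libraries. In the MAT comparisons SUL2 was at -0.08 (MATa, D), 0.50 (MATa, G), -0.33 (MATalpha, D) and 0.15 (MATalpha, G), on both sides of 0. SUL1, a second sulfate permease with 2 NDRs, lay between -0.78 and 0.46 in all comparisons. SOA1, a transporter of sulfonates and inorganic sulfur, lay between -0.63 and 0.22 at base means of 2.15 to 15.1, and neither gene was called.

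Among the sulfate assimilation genes, MET14, which encodes adenylylsulfate kinase, was the 1 call. At LHS1, 141.8 kb away on chromosome XI, the NDR starting 148 bp before its start codon had a log2 fold change of 0.86 (SE 0.225, adjusted p = 0.0056, base mean 124). It was 0.58 (SE 0.224) at MBR1 and 0.52 (SE 0.220) at MNR2, the other VPs on this chromosome, 174.2 and 120.3 kb away, with adjusted p-values of 0.25 and 0.91. Over the 11 VPs at 2 h MET14 ran from 0.38 to 0.86 with a median of 0.58, so VPs on other chromosomes, SHC1 with 0.58 (SE 0.239) among them, reached the level of MBR1 and MNR2. In the MAT and TRP2 comparisons it ran from -0.59 to 0.25. The remaining 11 NDRs of this group, near MET3 (ATP sulfurylase), MET16 (PAPS reductase), MET5 and MET10 (sulfite reductase subunits), MET1 and MET8 (siroheme synthesis) and the far NDR of MET14, lay between -0.84 and 0.83 and were never called.

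The genes of the homoserine and homocysteine steps held both lower calls outside the permeases, and both were made with YBP2 at 1 h and 256 copies. HOM3, aspartate kinase and the entry into the pathway, had a log2 fold change of -1.88 (SE 0.333, adjusted p = 1.3e-06, base mean 65.3), and HOM6, homoserine dehydrogenase, had -0.88 (SE 0.268, adjusted p = 0.016, base mean 112). HOM3 was at -0.82 (SE 0.27) with 4 copies, -1.50 (SE 0.41, adjusted p = 0.051) with 8 and -0.26 (SE 0.27) with 16. HOM6 was at -0.21 with 4 copies, -1.001 with 8 and -0.07 with 16. The values did not follow the number of copies, and the 4 comparisons share their controls. Over the 11 VPs at 2 h HOM3 ran from -0.48 to 0.13 and HOM6 from -0.63 to -0.16, below 0 at all 11. On chromosome V, where HOM3 lies 94.4 kb from SHC1, 129.4 kb from LSM4 and 80.6 kb from TRP2, its values were -0.26, -0.44, and -0.33 with and -0.11 without methionine, and none was called. MET7, folylpolyglutamate synthetase and the gene of this group with the largest base mean (median 122), ran from -0.48 to 0.45 over all comparisons. HOM2, MET2, MET17 (O-acetylhomoserine sulfhydrylase) and MET12 were not called, with values from -0.62 to 0.63.

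GSH1, which encodes the first enzyme of glutathione synthesis, was called in trans at 2 VPs. Its log2 fold change was 0.72 (SE 0.170, adjusted p = 0.0012, base mean 343) at LSM4 and 0.70 (SE 0.194, adjusted p = 0.0090, base mean 301) at LHS1. Over the 11 VPs at 2 h it ran from 0.17 to 0.72 with a median of 0.46, so the calls were the upper end of a continuous range, and SHC1 with 0.58 (SE 0.164) lay below the cutoff of 0.7. In the other 10 comparisons GSH1 ran from -0.34 to 0.39. CYS3 and CYS4, which carry homocysteine to cysteine, and STR2, which acts in the opposite direction, ran from -0.41 to 0.51 and were not called. CYS4 lay far-cis on chromosome VII at the 5 VPs there at 2 h, 398.8 to 583.6 kb away, with values from 0.04 to 0.30.

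SAM3, the S-adenosylmethionine permease, and SAM4, a homocysteine methyltransferase that recycles S-adenosylmethionine, lie next to each other on chromosome XVI, and their NDRs had base means among the largest of the members (medians 308 and 313). With YBP2 at 1 h and 256 copies SAM3 had a log2 fold change of 1.05 (SE 0.258, adjusted p = 0.0013, base mean 153) and SAM4 had 0.83 (SE 0.232, adjusted p = 0.0070, base mean 213). With 4, 8 and 16 copies SAM3 was at 0.37, 0.62 and 0.58, and SAM4 at 0.31, 0.57 and 0.22. Over the 11 VPs at 2 h SAM3 ran from 0.14 to 0.62 and SAM4 from 0.20 to 0.65, above 0 at all 11. Both were between -0.52 and 0.19 in the MAT comparisons. SAM4 at YBP2 (0.65), SHC1 (0.61), VHR1 (0.56) and LHS1 (0.54), and SAM3 at SHC1 (0.62) and LSM4 (0.55), had adjusted p-values under 0.05 but stayed below the cutoff of 0.7. SAM1 and SAM2 encode S-adenosylmethionine synthetases. Their NDRs, the shared NDR of MHT1 and MMP1, and the other SAM4 NDR ran from -0.44 to 0.67 with no call. That SAM4 NDR starts 981 bp after the start codon.

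The amino acid permeases had low base means. MUP3, the low-affinity methionine permease, had a log2 fold change of -1.76 (SE 0.432, adjusted p = 0.0014, base mean 25.3) with YBP2 at 1 h and 256 copies at the NDR 691 bp before its start codon, which is 41 bp from the start of CBP2. The same NDR was at -0.34, -1.19 and -0.86 with 4, 8 and 16 copies and at -0.61 with 256 copies at 2 h. Its second NDR, 266 bp before the start codon, was at 0.00 (SE 0.465) in the comparison that called the first. AGP3, an amino acid permease, ran from -0.60 to 0.17.

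MET28 and MET30 were the regulators with calls, both with VHR1, whose VP is on the same chromosome. MET28 was 133.2 kb from VHR1 on chromosome IX and had a log2 fold change of 1.13 (SE 0.191, adjusted p = 7.6e-07, base mean 193), while at the other 10 VPs at 2 h it lay between -0.06 and 0.38. The next highest value, 0.38 (SE 0.250) at OLE1, was not called. The NDRs of MET30 starting 732 and 224 bp before its start codon were 16.97 and 17.48 kb from VHR1, inside the local range, with log2 fold changes of 1.72 (SE 0.275, adjusted p = 1.6e-07) and 1.67 (SE 0.275, adjusted p = 4.1e-07). With YBP2 at 1 h and 256 copies the nearer NDR was at 0.76 (SE 0.204, adjusted p = 0.0048, base mean 443) and the farther one at -0.04. Their nearest gene starts are those of YIL046W-A and SYG1. MET31, MET32 and CBF1 ran from -0.53 to 0.68 and were not called.

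**Figure D2:**
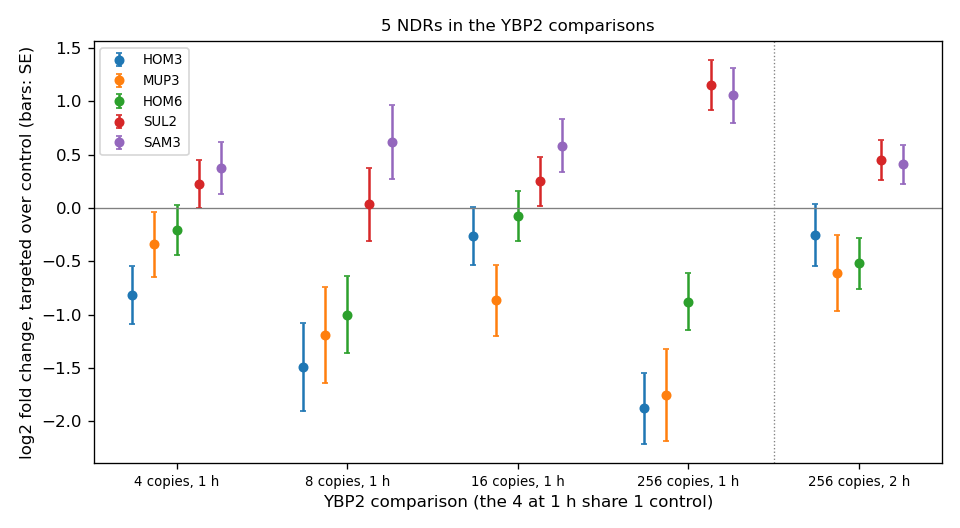
Log2 fold change (bars, SE) of 5 NDRs in the YBP2 comparisons with 4, 8, 16 and 256 LacO copies at 1 h and 256 copies at 2 h. The 5 are among the NDRs called with 256 copies at 1 h, so values closer to 0 elsewhere follow in part from that choice. HOM3 reached -1.88 and SUL2 1.15 with 256 copies at 1 h, and at 2 h all 5 lay closer to 0. Of these, only HOM3 passed the contrast between 2 h and 1 h.

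The calls moved with the base mean. With the NDRs of a comparison split by base mean into 5 bins of equal size, 16.3% of the highest bin and 0% of the lowest were called higher in the SHC1 comparison. In the LHS1 comparison 14.1% of the highest bin were called higher, and in YBP2 at 1 h with 256 copies 20.5%, with 6.88% called lower. Of the members, 14, 14 and 15 were in that bin. When the running median of the log2 fold change over NDRs ranked by base mean was subtracted, MET28 at VHR1 kept its call at 0.90, as did MET30 at VHR1 (1.51 and 1.46), HOM3 (-1.89), HOM6 (-1.10) and MUP3 (-1.79). The other 7 calls on the higher side were lost. GSH1 fell to 0.25 (adjusted p = 0.62) at LSM4 and 0.31 (adjusted p = 0.64) at LHS1, MET14 to 0.62 (adjusted p = 0.15), SUL2 to 0.57 (adjusted p = 0.16), SAM3 to 0.73 (adjusted p = 0.072), SAM4 to 0.30 (adjusted p = 0.68) and MET30 in YBP2 at 1 h to 0.00 (adjusted p = 1.0). Over all NDRs, calls on the higher side went from 1224 to 296. The part of this trend in the result was not otherwise tested.

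**Figure D3:**
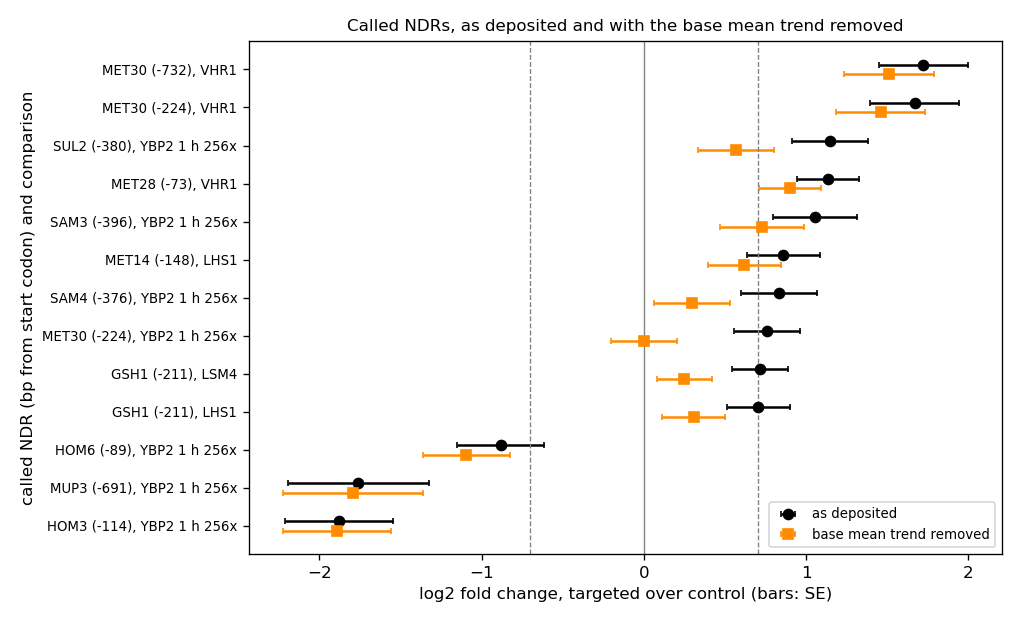
Log2 fold change (bars, SE) of each called NDR as deposited (circles) and with the base mean trend removed (squares); dashed lines mark -0.7 and 0.7. MET28 and the local MET30 NDRs stay above 0.7 and HOM3, MUP3 and HOM6 below -0.7, while GSH1, SUL2, MET14, SAM4 and MET30 at 1 h drop under 0.7.

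Differences between conditions were tested by subtracting 1 log2 fold change from the other and dividing by the combined SE, for 6 pairs of comparisons with separate controls, and 1 member passed an adjusted p of 0.05. HOM3 was higher in YBP2 at 2 h than at 1 h by 1.63 (SE 0.443, 95% interval 0.76 to 2.49, adjusted p = 0.019), from -1.88 at 1 h to -0.25 (SE 0.293) at 2 h, in a pair where 1.75% of all NDRs passed. SUL2 was lower at 2 h by 0.70 (SE 0.298), with an adjusted p of 0.34. Between TRP2 without and with methionine (0.0208% of all NDRs passed) no member passed by this Wald test, and SUL2 alone had an unadjusted p under 0.05. SUL2 was at 0.59 (SE 0.182) without and -0.49 (SE 0.269) with methionine, a difference of 1.08 (SE 0.325, 95% interval 0.44 to 1.71, adjusted p = 0.70), the sixth highest of 4804 NDRs. Neither value was called on its own, with an adjusted p of 0.25 without methionine. No member passed for MATa against MATalpha in glucose (0% of all NDRs, by adjusted p), for galactose against glucose in MATa (0.292%) or MATalpha (0%), or for SHC1 against TRP2 without methionine (1.85%). At an unadjusted p under 0.05 these 4 pairs held 0, 1, 0 and 3 members, beside 1.52%, 3.57%, 0.855% and 12.5% of all NDRs. The median difference over the 44 members was 0.06, -0.01, 0.04, 0.09, 0.14 and -0.07 in the 6 pairs, beside 0.00, 0.02, 0.00, 0.01, 0.00 and -0.02 over all NDRs.

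The base mean averages targeted and control libraries, so it moves in part with the VP, and at a few members it differed between the TRP2 comparisons with and without methionine. At SUL2 it was 48.8 in the TRP2 comparison with methionine and 174 in the one without, 3.77-fold more after centring on the median of all NDRs, the highest of 4827 NDRs. The control libraries alone, worked out from the base mean and the fold change, gave 57.0 and 139, a log2 ratio of 1.37 and the third highest. MET1, a siroheme synthesis gene, went from 16.2 to 33.9 at the NDR 407 bp before its start codon, a log2 ratio of 1.13, although BET3 starts closer to that NDR. MET2, homoserine O-acetyltransferase, went from 36.3 to 61.2 (log2 ratio 0.84) at the NDR 416 bp before its start codon. YNL277W-A starts closer to that NDR, 254 bp away. MET5 went from 6.86 to 11.1 (0.72) and HOM6 from 49.7 to 70.0 (0.59). The lowest ratios were those of MET32, from 13.7 to 7.75 (-0.65), SAM2, from 71.2 to 45.5 (-0.54), and MET10, from 23.7 to 15.6 (-0.47). No test was possible because the values of single libraries are not in the tables, the comparisons were normalized separately, and methionine and any difference between the 2 experiments cannot be told apart.

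The members did not move together. Their median log2 ratio was 0.04, with 23 of 44 above 0, beside 0.00 over all NDRs, whose 5th to 95th percentiles were -0.47 to 0.53. Of the 44, 5 were in the highest and 3 in the lowest 5% of all NDRs. By role, the uptake genes had a median of 0.44 with 4 of 4 NDRs above 0 and sulfate assimilation 0.13 with 9 of 12. The homoserine and homocysteine steps had 0.00 with 4 of 8, and the amino acid permeases 0.08 with 2 of 3. Transsulfuration and glutathione had -0.07 with 0 of 4, S-adenosylmethionine -0.11 with 2 of 6, and the regulators -0.21 with 2 of 7. The 23 NDRs of the other pathway genes had a median of 0.01, and the 5 NDRs left out by the rule had 0.25.

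**Figure D4:**
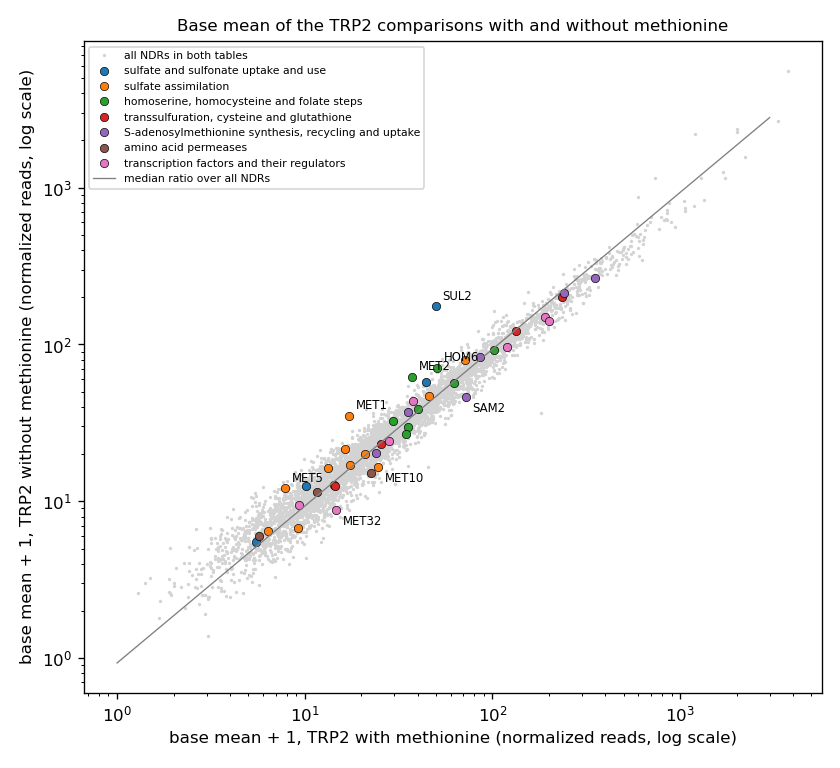
Base mean plus 1 of each NDR in the TRP2 comparisons with (x) and without (y) methionine, both on log axes; members are coloured by role, all NDRs are grey, and the line is the median ratio. SUL2, at 48.8 and 174, lies farthest above the line among the members, followed by MET1, MET2, MET5 and HOM6, with MET32, SAM2 and MET10 below it.

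At SUL2, MET1, MET2 and HOM6 the comparison with methionine gave the lowest value of all 21. These NDRs were picked for their high base mean ratios without to with methionine. The ratios use the same base mean with methionine, so its low position follows in part from the choice. Divided by the median base mean of its own comparison, SUL2 was at 2.00 in TRP2 with methionine and 7.48 without, and it lay at 6.84 to 8.13 in the 11 VPs at 2 h, 5.27 to 8.68 in YBP2 at 1 h and 4.76 to 9.09 in the MAT comparisons, with no overlap between the first value and the rest. MET1 was at 0.66 with methionine and 1.46 to 3.24 in the other 20 comparisons. MET2 was at 1.49 with methionine against 2.14 to 5.28, and HOM6 at 2.04 against 2.68 to 5.80. SAM2 was highest with methionine, at 2.93, and ran from 0.95 to 2.38 elsewhere. The comparison with methionine was the lowest of the 21 at 11 of the 44 members (25%) and at 6.74% of all 4820 NDRs present throughout. Both NDRs of SUL1, of MET1 and of MET2 were among the 11, so neighbouring NDRs of the same gene were counted separately. Another gene's start was nearer at those of MET1 and MET2 and at the MET31 NDR among the 11. The comparison with methionine was the highest at 2 members (4.55%) and at 8.2% of all NDRs. No other comparison was the lowest at more than 7 members, but MATalpha in galactose was the highest at 14 (31.8%), SUL2, MET1 and MET2 among them, and at 15.6% of all NDRs. These counts are descriptions, since many of the comparisons share libraries and the medium of most is not labelled. This comparison of 21 tables was chosen after the TRP2 values were seen.

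**Figure D5:**
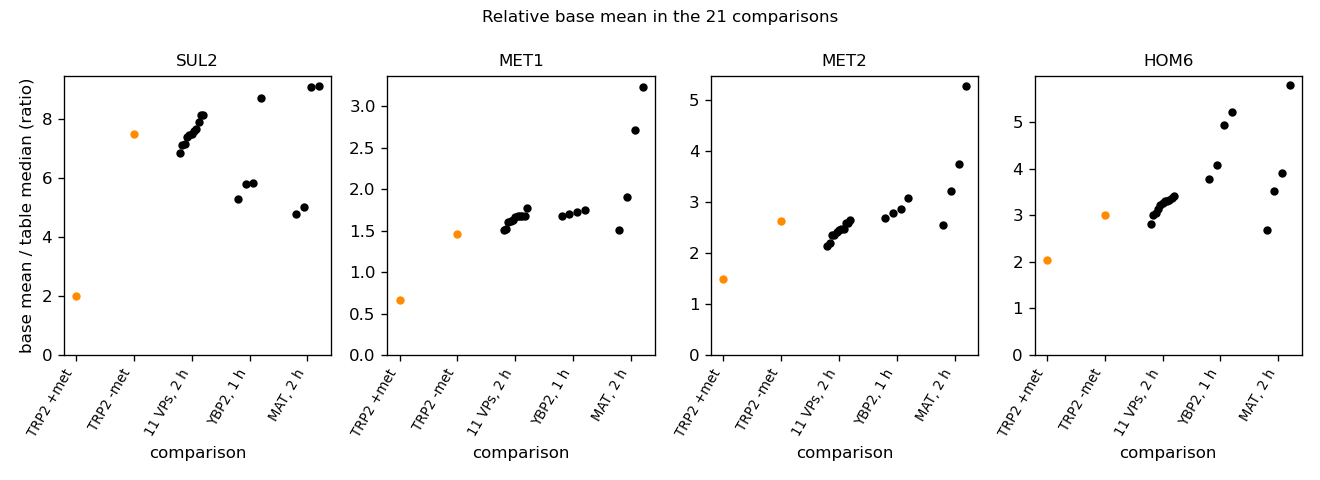
Base mean divided by the median base mean of the same comparison at SUL2, MET1, MET2 and HOM6, with 1 point per comparison, sorted within a set. The point for TRP2 with methionine (2.00, 0.66, 1.49 and 2.04) is the lowest in each panel. The NDRs shown were picked for high ratios without to with methionine, so this follows in part from the choice.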

How the data were processed

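The authors trimmed paired-end reads with fastp 0.23.2, aligned them to sacCer3 with BWA 0.7.17, removed duplicates with Picard, counted reads per NDR with featureCounts 2.0.3 and compared 2 targeted with 2 control libraries by DESeq2 1.38.0. The base mean in the deposited tables is a signal value, the authors' mean of normalized read counts, with table medians of 15.8 to 49.5. The log2 fold change and its SE in the deposited tables are the authors' DESeq2 estimates on the log2 scale. The SE did not always rise toward low counts. For MATalpha in glucose its median was 0.247 in the lowest base mean bin and 0.313 in the middle one. Whether the estimates were shrunk toward 0 was not tested. At SOA1 in TRP2 without methionine the SE was 0.172 at a base mean of 4.52. At MET32 in MATalpha in glucose it was 0.163 at 5.60. Log2 fold changes near 0 at such low base means are therefore not evidence of a lack of change. Any shrinkage would carry over into the contrasts and the control levels worked out here. The deposited Wald statistic, p-value, adjusted p-value and -log10 columns of the authors are their own comparison and were not used. The tables hold no value or total per library. Read totals per library are listed in the study's supplement and were not used here. The labels do not say whether the 2 libraries of a group came from separate cultures, while the study's methods describe them as biologically independent.

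From the log2 fold change and SE, a two-sided normal p was recomputed and Benjamini-Hochberg adjusted over all NDRs of each table (4828, or 4824 for MATa in glucose, less 5 values without an SE). These columns are themselves a comparison by the authors and were used because no other values per NDR were at hand. The VP position was the midpoint of the named gene. Controls were assigned by the labels of strain, time and medium. The base mean ratio used a pseudocount of 1, and the running median a window of 201 NDRs. RefSeq R64 is the sacCer3 assembly. Python 3.11.15, numpy 2.4.6, pandas 2.3.3, scipy 1.17.1 and matplotlib 3.10.9 were used, and the test was tested on simulated data.

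The members and gene lists were chosen with earlier results of these data known. Named with values were all called NDRs, those passing a contrast, and in each role group the NDR with the largest ratio of fold change to SE and the one with the largest base mean. Sequence windows from the NDR starts replaced the planned promoter windows, which miss part of the measured NDRs, and were chosen after seeing the data, as were the motif counts over them and the relative base means over 21 tables. Alternatives were other cutoffs, a base mean minimum of 10, the removed trend, a distance of 500 bp, a pseudocount of 5 and control levels in place of base means.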

Additional observations from a re-analysis of the deposited data

Results flagged for a closer look

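HOM3, the gene of aspartate kinase, differed between induction times at the YBP2 VP with 256 copies, where the difference of the log2 fold changes at 2 h and 1 h was 1.63 (SE 0.443, adjusted p = 0.019 by the Wald test over 4800 NDRs). It came from -1.88 at 1 h and -0.25 at 2 h, each from 2 targeted and 2 control libraries, and the control libraries differ between the times. At 1 h, against the same controls as the 256 copies, HOM3 was at -0.82 with 4 copies, -1.50 with 8 and -0.26 with 16. None of these values was called. The induction time and the change of control libraries cannot be told apart.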

How the results depend on the processing

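The 8 higher calls among the members became 3 at a log2 cutoff of 1, 15 with no cutoff and 1 with the base mean trend removed. They stayed 8 at an adjusted p under 0.01, with a base mean of 10 or more and within 500 bp. The 1224 higher calls over all NDRs became 354, 1819 and 296 under the first 3 settings. The 3 lower calls became 5 with the trend removed, adding HOM6 at SHC1 (-0.80) and the farther MET30 NDR in YBP2 at 1 h with 256 copies (-0.74), and were 2 at a cutoff of -1, 3 with no cutoff, 2 at an adjusted p under 0.01, 4 with a base mean of 10 or more and 2 within 500 bp. The 1 member passing a contrast became 0 at an adjusted p under 0.01 and stayed 1 otherwise. The median base mean ratio of the members, 0.04, was 0.04 for control levels, 0.03 with a pseudocount of 5, -0.00 with base means of 10 or more and -0.02 within 500 bp. This median, close to 0, thus changed sign under the last 2 of these settings, and no called value did under any. Leaving out single libraries could not be run because the tables hold no value per library. No paired analysis was possible because the tables hold no value per library.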
